A study of Rattus norvegicus with 8 samples.

Results

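This account follows 41 genes that mark astrocytes, the star-shaped support cells of the brain, across 8 Affymetrix rat genome arrays. The genes were listed by name: 19 mark the identity of resting astrocytes and 22 mark reactive astrocytes, the state these cells enter after injury, infection or inflammation. A gene was found through probe sets that the platform annotation gives a single symbol, which held for 37 of the 41 genes, 18 identity and 19 reactive, with 55 probe sets between them. Sox9, Osmr, Ptx3 and Cd109 were not named by such a probe set. The array reads 14217 genes in this way. Of these, 10539 genes had a probe set above the level filter, a mean intensity of about 26.0, and were tested, among them 31 of the listed genes: 17 identity and 14 reactive.

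All 8 arrays measured brain of adult male Wistar rats (the strain is missing from the label of PBS replicate 2), taken 48 hours after a stereotaxic injection into the striatum. In the baculovirus group (4 arrays) the injection held 5 µl with 50000000 particles of a baculovirus vector that had been inactivated with 254 nm ultraviolet light for 1 hour. In the PBS group (4 arrays) it held 5 µl of phosphate-buffered saline. Both groups thus carried a needle injury, and no array of an uninjected brain was analysed here. The study used 7 rats and injected saline contralaterally, but no label says which rat an array came from. With 7 rats for 8 arrays, some arrays must share a rat, while the tests took the arrays as independent. The p-values thus measure the spread between these samples only.

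Resting astrocytes take up glutamate and potassium, move water at the vessel wall and are joined to each other by gap junctions. Reactive astrocytes enlarge their intermediate filaments, the internal cables made of GFAP, vimentin and nestin, and secrete acute-phase proteins. Cytokines of the interleukin-6 family, acting through the transcription factor STAT3, are a main route into that state, and SOCS3 is the feedback inhibitor of the same route. In tissue samples such as these, fewer astrocytes and less RNA per astrocyte cannot be told apart.

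No astrocyte gene passed the test for a difference between the groups, and nor did any other tested gene on the arrays. Of the 31 tested genes, 0 passed a limma adjusted p of 0.05 (Benjamini-Hochberg over 18625 probe sets), as did 0% of all probe sets tested, and 0 of the 31 were under an unadjusted p of 0.05, against 2.66% of all tested genes in the higher and 3.92% in the lower direction. The methods' t-test also gave 0 of 31 after adjustment. Its rule of an unadjusted 0.05 with a 2-fold change could call none of the 31. Their limma log2 fold changes lay between -0.19 (Nes) and 0.33 (Timp1), short of 2-fold. The median log2 fold change, baculovirus over PBS on the log2(intensity + 16) scale, was -0.00890 over the identity genes, 0.08 over the reactive genes and 0.02 over all 10539 genes. Means were higher after baculovirus for 7 of 17 identity genes and 11 of 14 reactive genes, where 55.7% of all tested genes were higher. The SD between arrays of a group had a higher median over the reactive than over the identity genes.

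**Figure D1:**
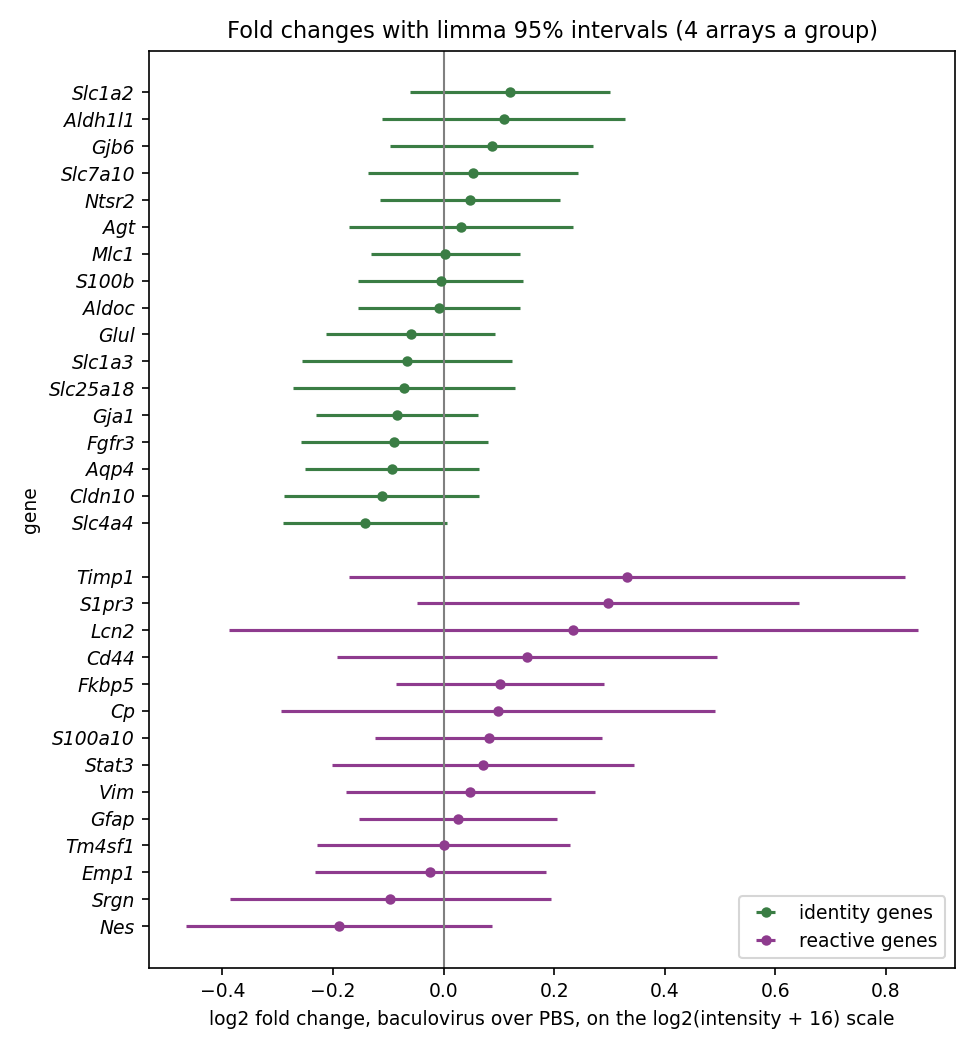
Log2 fold change (x axis, baculovirus over PBS on the log2(intensity + 16) scale) of the 17 tested identity genes (green) and 14 tested reactive genes (purple), 1 gene per line, with limma 95% intervals from 4 arrays a group. Every interval includes 0, and the widest, for Lcn2, runs from -0.39 to 0.86.

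Slc4a4, which encodes a sodium bicarbonate cotransporter, was the only tested gene of either list whose groups did not overlap. Its intensity was 435, 410, 402 and 431 on baculovirus replicates 1 to 4 and 447, 492, 478 and 442 on PBS replicates 1 to 4. The closest arrays of the groups, baculovirus replicate 1 and PBS replicate 4, were thus 435 and 442, and the log2 fold change was -0.14 ± 0.07 (SE, limma adjusted p = 0.740). That is 1 of 17 identity genes separated in the lower direction, against 2.31% of all tested genes, and 0 of 17 in the higher direction, against 1.87%. The other probe set of Slc4a4 overlapped between the groups and had the opposite direction, 0.03 ± 0.13.

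Slc1a2, the glial glutamate transporter GLT-1, was 109, 98.4, 108 and 100.5 on the baculovirus arrays and 95.4, 92.3, 98.5 and 90.9 on the PBS arrays. Baculovirus replicate 2 lay just under PBS replicate 3, and the log2 fold change was 0.12 ± 0.08 (SE, limma adjusted p = 0.788). Slc1a3, the glutamate transporter GLAST, was 1137, 1167, 1159 and 1351 on the baculovirus arrays and 1075, 1299, 1243 and 1440 on the PBS arrays. Replicate 4 was the highest in both groups, which overlapped along nearly their whole range, and the 3 probe sets of Slc1a3 did not share a direction. Aqp4, the water channel of astrocyte endfeet, was 983, 948, 977 and 889 on the baculovirus arrays and 890.0, 1086, 1027 and 1059 on the PBS arrays. PBS replicate 1 fell among the baculovirus arrays and the other PBS arrays lay above them all, with a log2 fold change of -0.09 ± 0.07 (SE, limma adjusted p = 0.813). The 2 other Aqp4 probe sets gave -0.19 ± 0.13 and -0.03 ± 0.11. Kcnj10, the potassium channel Kir4.1, was read by 1 probe set below the level filter, at 3.20, 14.1, 8.08 and 8.17 after baculovirus and 10.00, 8.18, 6.73 and 20.9 after PBS. The groups overlapped at that dim level, and the gene was left out of the main test.

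Genes of cell contact and metabolism overlapped between the groups as well. Gja1, the gap junction protein connexin 43, was 1418, 1630, 1480 and 1492 on the baculovirus arrays and 1473, 1559, 1734 and 1622 on the PBS arrays. The groups overlapped, and the log2 fold change was -0.08 ± 0.07 (SE, limma adjusted p = 0.819). A dimmer Gja1 probe set gave 0.28 ± 0.23 with the opposite direction. Gjb6, connexin 30, stood at 0.09 ± 0.08. Cldn10, a claudin, was 447, 483, 452 and 544 after baculovirus and 514, 508, 578 and 485 after PBS, with overlapping groups and a log2 fold change of -0.11 ± 0.08 (SE, limma adjusted p = 0.794).

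Glul, glutamine synthetase, which turns glutamate into glutamine, was 1101, 1256, 1259 and 1133 on the baculovirus arrays and 1154, 1189, 1278 and 1330 on the PBS arrays. The groups overlapped, and its 3 probe sets ranged from -0.06 to 0.19 in log2 fold change. S100b, a calcium-binding protein, was 1741, 2020, 1878 and 2069 after baculovirus and 1774, 1941, 1980 and 2032 after PBS. Replicate 1 was the lowest array in both groups, and limma gave a log2 fold change of -0.00507 (95% interval -0.15 to 0.14). The remaining identity genes were the aldolase Aldoc, the folate enzyme Aldh1l1, the growth factor receptor Fgfr3, angiotensinogen (Agt), the amino acid transporter Slc7a10, the neurotensin receptor Ntsr2, the membrane protein Mlc1 and the mitochondrial carrier Slc25a18. Their log2 fold changes lay between -0.09 (Fgfr3) and 0.11 (Aldh1l1), and all overlapped between the groups.

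Across the 17 identity genes the 95% intervals reached no lower than -0.29 and no higher than 0.33. In 13 of the 17, 76.5%, the fold change was under 0.1 in size, and the same held for 59.4% of all tested genes. The highest array exceeded the lowest by 1.12-fold (Mlc1) to 1.42-fold (Aldh1l1), with a median of 1.22-fold. Of the 6 identity genes with several probe sets above the filter, 5 had probe sets of opposite direction, and the 3 of Aqp4 shared theirs. The other 11 identity genes rest on 1 tested probe set each.

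**Figure D2:**
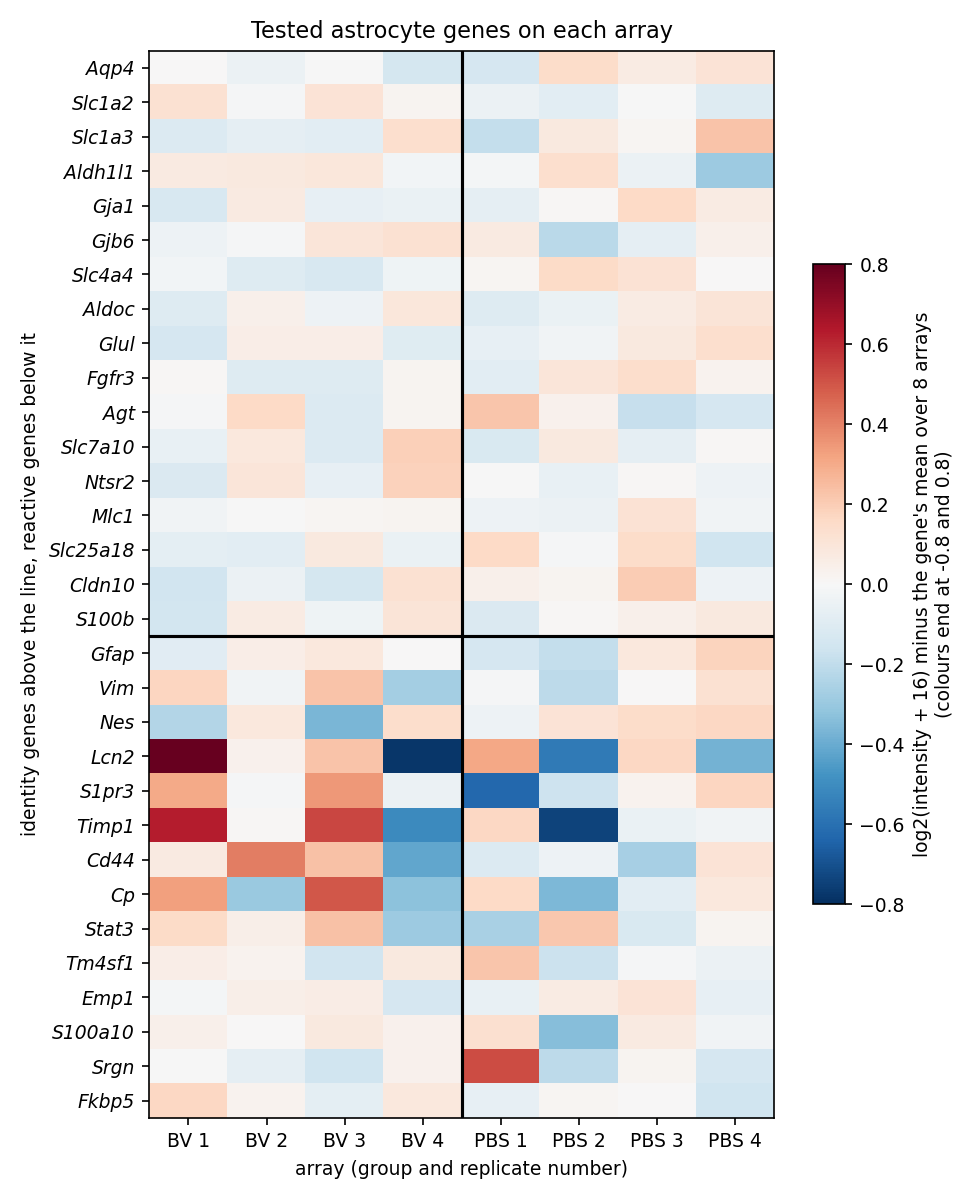
Level of the 31 tested genes (rows, identity genes above the line and reactive genes below) on each array (columns, BV for baculovirus and PBS, with replicate numbers), as log2(intensity + 16) minus the gene's mean over the 8 arrays. Identity rows stay pale, while Lcn2, Timp1, S1pr3, Cp and Cd44, and Srgn on PBS replicate 1 (0.52), carry strong colours.

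The filament genes, the classical signs of reactivity, overlapped between the groups. Gfap, the filament protein that defines reactive astrocytes in tissue stains, was 1551, 1716, 1756 and 1660 on baculovirus replicates 1 to 4 and 1507, 1449, 1757 and 1876 on PBS replicates 1 to 4. The baculovirus arrays fell inside the range of the PBS arrays, and the log2 fold change was 0.03 ± 0.08 (SE, limma adjusted p = 0.968). Vim, vimentin, was 1039, 905, 1081 and 761 after baculovirus and 916, 795, 924 and 1003 after PBS. Here the PBS arrays fell inside the baculovirus range, and the log2 fold change was 0.05 ± 0.10 (SE, limma adjusted p = 0.945). Nes, nestin, a filament protein of neural progenitors that returns in reactive astrocytes, was dim at 28.0, 38.8, 24.2 and 40.9 after baculovirus and 34.2, 39.7, 41.3 and 42.2 after PBS. Baculovirus replicates 1 and 3 were lowest, and its log2 fold change was -0.19 ± 0.13 (SE, limma adjusted p = 0.787), the lowest of the reactive list. It was -0.10 without baculovirus replicate 3 and -0.09 with a pseudocount of 64.

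Of the tested genes in both lists, Lcn2 and Timp1, which encode secreted proteins, had the largest SD between arrays of a group. Lcn2, lipocalin 2, an iron-binding acute-phase protein, was 631, 320, 367 and 175 on the baculovirus arrays and 388, 205, 351 and 236 on the PBS arrays. Its highest and lowest arrays, baculovirus replicates 1 and 4, both belonged to the baculovirus group and differed by 3.61-fold. The log2 fold change was 0.23 ± 0.29 (SE, limma adjusted p = 0.886), and it was -0.05 without baculovirus replicate 1, the array at 631, and 0.53 without baculovirus replicate 4. Timp1, an inhibitor of matrix metalloproteinases, was 287, 181, 267 and 122 on the baculovirus arrays and 203, 101, 172 and 175 on the PBS arrays. As with Lcn2, baculovirus replicate 1 was highest and baculovirus replicate 4 and PBS replicate 2 were the lowest arrays. Its log2 fold change of 0.33 ± 0.23 (SE, limma adjusted p = 0.788), the highest of the reactive list, became 0.18 when baculovirus replicate 1 was left out, 0.21 for replicate 3 and 0.56 for replicate 4, and leaving out PBS replicate 2 gave 0.14.

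Cp, the copper protein ceruloplasmin, ran from 60.6 to 119 after baculovirus and from 58.9 to 91.2 after PBS. Its 3 probe sets had a higher mean after baculovirus, from 0.09 to 0.28. Replicate 3 was the highest baculovirus array for the brightest of them, but not for all 3. Srgn, the proteoglycan serglycin, was brightest on PBS replicate 1 at 288, with a range of 167 to 201 over the remaining 7 arrays. Serpina3n, a protease inhibitor that often rises with reactivity, was below the level filter on its 1 probe set, at 5.33, 21.4, 13.2 and 11.9 after baculovirus and 10.3, 8.24, 15.8 and 12.4 after PBS, with overlapping groups.

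**Figure D3:**
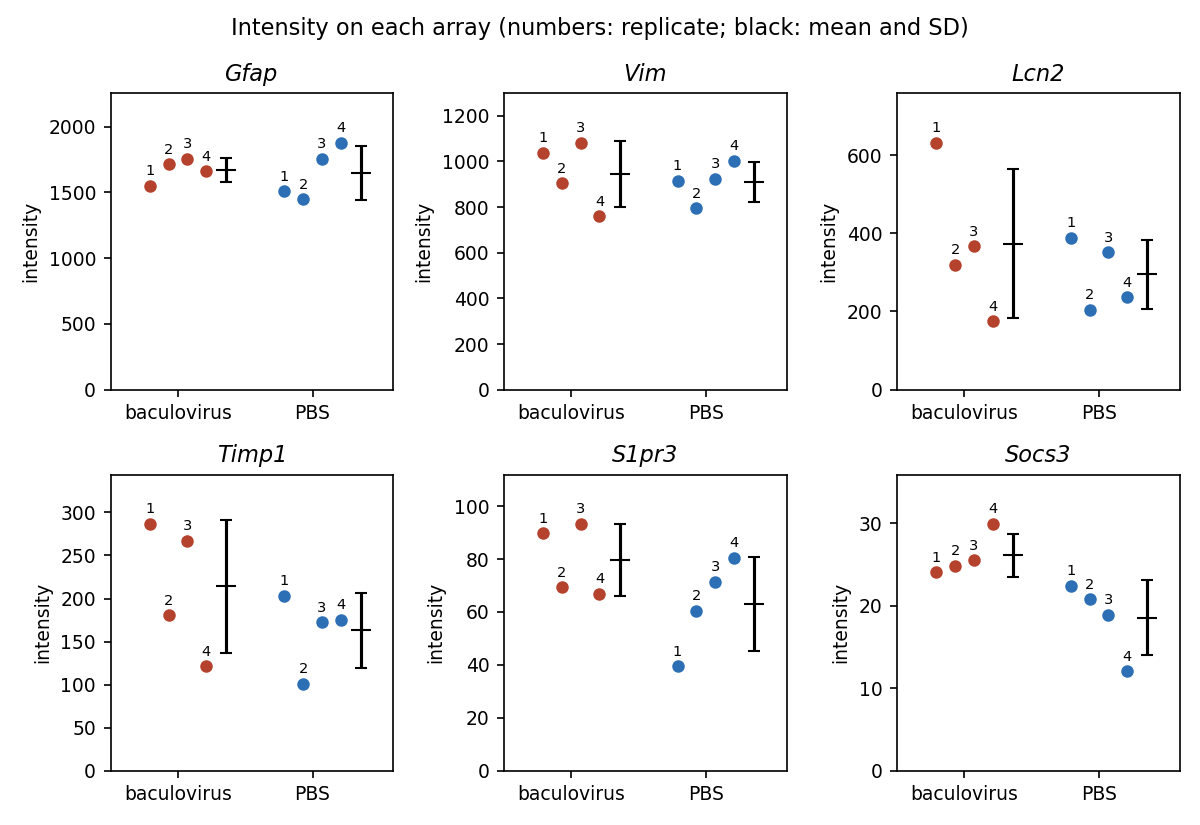
Intensity (y axes, linear, from 0) of 6 reactive genes on each of 4 baculovirus arrays (red) and 4 PBS arrays (blue), numbered by replicate, with mean and SD in black. The groups overlap for each gene apart from Socs3, where baculovirus arrays lie between 24.1 and 29.9 and PBS arrays between 12.05 and 22.4.

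Receptors and surface proteins gave small and variable differences. S1pr3, a receptor for the lipid sphingosine 1-phosphate, was 89.7, 69.3, 93.3 and 67.0 on the baculovirus arrays and 39.6, 60.5, 71.4 and 80.5 on the PBS arrays. PBS replicate 1 stood lowest and the groups overlapped between 67.0 and 80.5. Its log2 fold change was 0.30 ± 0.16 (SE, limma adjusted p = 0.755), and it was 0.14 without PBS replicate 1 and 0.19 with a pseudocount of 64. Sphk1, the kinase that makes that lipid, was below the filter at 7.28 to 21.1 after baculovirus and 5.77 to 13.8 after PBS. Cd44, the hyaluronan receptor, was 43.5, 59.2, 50.6 and 26.4 after baculovirus and 36.6, 39.1, 31.1 and 45.0 after PBS. The baculovirus arrays held both the highest and the lowest value, and the 2 Cd44 probe sets had opposite directions, 0.15 ± 0.16 and -0.05 ± 0.15 (log2 fold change ± SE). The first became 0.04, 0.10 and 0.31 when baculovirus replicate 2, 3 or 4 was left out, 0.09 when PBS replicate 3 was left out and 0.09 with a pseudocount of 64, and the mean of both probe sets gave 0.05. The membrane proteins Tm4sf1 and Emp1 and the annexin partner S100a10 stood at 0.000300 ± 0.11, -0.02 ± 0.10 and 0.08 ± 0.09. Steap4, a metalloreductase, and Aspg, an asparaginase, were below the filter, with highest intensities of 21.3 and 5.18.

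The signalling genes of the list included the 1 reactive gene whose groups did not overlap. Socs3, the inhibitor that STAT3 induces, was 24.1, 24.9, 25.6 and 29.9 on the baculovirus arrays and 22.4, 20.8, 18.9 and 12.05 on the PBS arrays. Every baculovirus array was above every PBS array, although the closest pair, 24.1 and 22.4, differed by less than the SD within either group (2.62 and 4.57). With its mean under the level filter it was not among the 31 tested genes. With no level filter limma gave a log2 fold change of 0.29 (95% interval 0.02 to 0.57), an unadjusted limma p of 0.0406 and a limma adjusted p of 0.794. In the same run the unadjusted limma p was 0.363 for Kcnj10, 0.786 for Serpina3n, 0.762 for Steap4, 0.890 for Aspg and 0.229 for Sphk1. Socs3 was then 1 of 19 reactive genes separated in the higher direction, against 1.94% of 14217 genes. Its size depended on the pseudocount, being 0.50 with a pseudocount of 1 and 0.13 with 64, as holds for a dim probe set.

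Stat3 itself was 183, 169, 195 and 130 on the baculovirus arrays and 134, 192, 149 and 165 on the PBS arrays. The groups overlapped along nearly their whole range, with 0.07 ± 0.13 for this probe set and 0.12 ± 0.12 for the other (log2 fold change ± SE, limma adjusted p = 0.931 and 0.857). Fkbp5, a co-chaperone of the glucocorticoid receptor, was 152, 136, 126 and 143 after baculovirus and 127, 135, 134 and 118 after PBS, at 0.10 ± 0.09 (SE, limma adjusted p = 0.824). In a wider list of 26 cytokine genes around STAT3, which holds interleukin-6 family cytokines, their receptors, kinases and inhibitors, genes of the interleukin-1 and tumour necrosis factor routes and C1qa, 15 genes were above the filter, 8 with a higher and 7 with a lower mean, 0 past the threshold in either direction, and a median of 0.00422. The smallest p-values there belonged to the tumour necrosis factor receptor Tnfrsf1a at 0.23 ± 0.15, Pias3, an inhibitor of STAT3, at 0.12 ± 0.09, and the ciliary neurotrophic factor receptor Cntfr at 0.25 ± 0.23.

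The promoters of 3 of these genes are shown, of Lcn2 and Timp1 because they shared their highest array, and of Socs3 because its groups lay apart. Each line gives the 250 bases before the gene's start from RefSeq on the GRCr8 build, 5′ to 3′ on the gene's strand, at chr3:36081781-36082030 (minus strand) for Lcn2, chrX:3771123-3771372 (minus strand) for Timp1 and chr10:103694769-103695018 (minus strand) for Socs3. Capitals mark matches to the κB consensus bound by NF-κB.
Lcn2: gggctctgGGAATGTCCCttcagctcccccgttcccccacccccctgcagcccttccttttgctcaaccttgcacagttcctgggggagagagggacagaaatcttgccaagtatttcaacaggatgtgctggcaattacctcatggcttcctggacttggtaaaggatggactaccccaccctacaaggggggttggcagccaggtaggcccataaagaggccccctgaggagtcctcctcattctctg
Timp1: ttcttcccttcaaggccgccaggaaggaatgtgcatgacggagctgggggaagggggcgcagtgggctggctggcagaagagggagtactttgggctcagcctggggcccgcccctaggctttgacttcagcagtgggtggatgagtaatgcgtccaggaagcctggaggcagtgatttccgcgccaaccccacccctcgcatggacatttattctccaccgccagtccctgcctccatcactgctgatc
Socs3: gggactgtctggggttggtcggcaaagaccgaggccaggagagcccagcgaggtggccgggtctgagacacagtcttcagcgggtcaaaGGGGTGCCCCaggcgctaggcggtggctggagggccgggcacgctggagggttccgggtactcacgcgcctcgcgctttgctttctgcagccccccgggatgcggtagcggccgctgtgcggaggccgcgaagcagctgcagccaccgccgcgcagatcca

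The search covered both strands of these 250 bases for the STAT motif TTCNNNGAA, the AP-1 motif TGANTCA and the κB consensus, and overlapping matches were kept. Promoters were found for 17 identity and 20 reactive genes. The STAT letters were in 3 of 20 reactive promoters (Serpina3n, Steap4 and Emp1), in 1 of 17 identity promoters (Ntsr2) and in 7.67% of 33469 promoters in the table. The AP-1 letters were in 3 reactive promoters (Osmr, Aspg and Emp1), 1 identity promoter (Gja1) and 6.34% of all. The κB consensus was in 5 reactive promoters (Vim, Lcn2, Steap4, Socs3 and Ptx3), 3 identity promoters (Aqp4, Slc1a3 and Slc7a10) and 6.33% of all. Each listed gene was read by 1 promoter, while the shares of all count every promoter in the table. A match describes the letters of this window only.

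The SD between arrays of a group had a median of 0.20 on the log2 scale over the 14 reactive genes, 0.10 over the 17 identity genes and 0.14 over all tested genes. It was as high or higher over some other lists: 0.21 for striatal neuron and for meninges markers, 0.25 for microglia, 0.36 for further reactive astrocyte genes and 0.39 for choroid plexus markers. It was lower over the rest: 0.17 for the STAT3 list, 0.16 for endothelial, 0.13 for general neuronal and for further astrocyte-enriched genes, and 0.11 for oligodendrocyte markers. Among genes with a mean intensity above 100 the medians were 0.20 for 8 reactive genes, 0.10 for 15 identity genes and 0.12 for 6343 genes in all. The highest array exceeded the lowest by more than 2-fold in 5 reactive genes (Lcn2, Timp1, S1pr3, Cd44 and Cp) and in 0 identity genes. Reactive genes differed among themselves in this: the SD was 0.09 for Emp1, 0.09 for Fkbp5 and 0.14 for Gfap, against 0.59 for Lcn2 and 0.47 for Timp1.

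**Figure D4:**
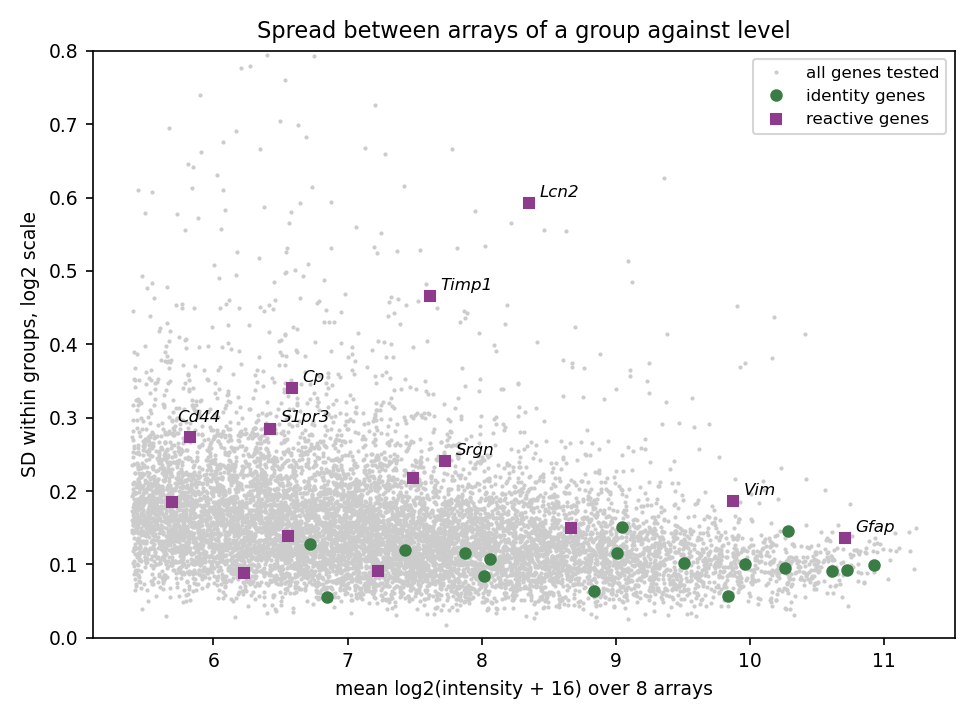
SD between arrays of a group on the log2 scale (y axis) against mean log2(intensity + 16) over the 8 arrays (x axis) for all 10539 tested genes (grey), identity genes (green) and reactive genes (purple). Lcn2 at 0.59 and Timp1 at 0.47 stand highest among the listed genes, and 14 grey genes lie above the end of the axis at 0.8.

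The same arrays were high or low for many reactive genes. PBS replicate 2 was the lowest of 8 arrays for 6 of 14 reactive genes and baculovirus replicate 4 for 5, where these arrays were lowest for 15.2% and 14.7% of all tested genes. Baculovirus replicate 3 was highest for 4 reactive genes, and baculovirus replicate 1 and PBS replicate 1 for 3 each, where these arrays were highest for 9.61%, 12.02% and 15.0% of all tested genes. Recurrent arrays were not particular to the reactive list. Baculovirus replicate 1 was the lowest array for 6 of 17 identity genes, where it was lowest for 9.24% of all tested genes. These counts were chosen after the values had been seen. Averaged over the reactive genes after centring each gene on its mean, the level was 0.18, 0.02, 0.13 and -0.17 on baculovirus replicates 1 to 4 and 0.01, -0.18, 0.00731 and 0.000668 on PBS replicates 1 to 4. The lowest arrays of both groups were thus alike, and the difference of the means was 0.08. The identity level kept between -0.06 and 0.05 on all 8 arrays.

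The reactive minus identity difference, which contrasts both states on each array, was 0.24, 0.01, 0.15 and -0.21 on the baculovirus arrays and 0.04, -0.20, -0.04 and 0.000484 on the PBS arrays. The group means differed by 0.10, less than the SD of 0.19 within the baculovirus group and of 0.11 within the PBS group. Leaving out 1 array moved this difference to between 0.03 (without baculovirus replicate 1) and 0.18 (without baculovirus replicate 4), through 0.05 without PBS replicate 2 and 0.06 without baculovirus replicate 3. The reactive median of 0.08 moved to 0.02 when baculovirus replicate 1 was left out, to 0.03 for replicate 3 and to 0.12 for replicate 4, and it turned to -0.00513 when PBS replicate 2 was left out, where 6 of 14 reactive genes had a higher mean. The identity genes had 4 of 17 higher means without baculovirus replicate 4.

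**Figure D5:**
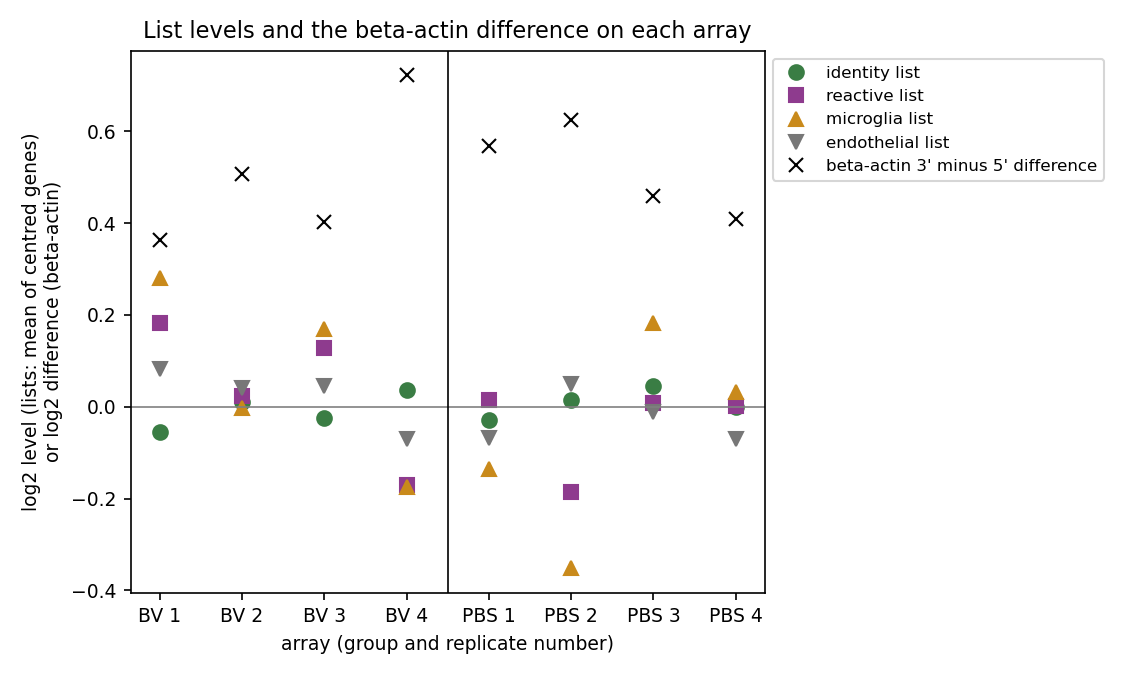
Mean centred log2 level of the identity, reactive, microglia and endothelial lists and the 3′ minus 5′ log2 difference of beta-actin (y axis) on each array (x axis). The reactive, microglia and endothelial levels are all highest on baculovirus replicate 1. The reactive and microglia levels are lowest on PBS replicate 2, and the beta-actin difference is highest on baculovirus replicate 4 at 0.72.

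The difference between the 3′ and 5′ beta-actin probe sets, a measure of RNA quality and labelling, was 0.36, 0.51, 0.40 and 0.72 on the baculovirus arrays and 0.57, 0.62, 0.46 and 0.41 on the PBS arrays. It was smallest on baculovirus replicate 1, where the reactive level was highest, and largest on baculovirus replicate 4 and PBS replicate 2, where that level was lowest. The same difference for hexokinase was 1.38, 1.10, 1.53 and 1.15 on the baculovirus arrays and 1.41, 1.38, 1.02 and 1.09 on the PBS arrays, which did not follow that order. For GAPDH it lay between -0.11 and -0.04 on all 8 arrays. Between the groups the beta-actin difference differed by -0.02 (exact two-sided permutation p = 0.886, 0.886 after Benjamini-Hochberg over 3 array measures). With it as a covariate, the reactive median was 0.06 and the identity median -0.00713, and 0 of 31 genes passed.

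Markers of microglia, the brain's resident macrophages, which also express several of the reactive genes, had a higher mean for 14 of 15 tested members, with a median of 0.15. Their summed intensity ran from 3398 to 4497 on the baculovirus arrays and from 2971 to 4374 on the PBS arrays, with the lowest values on baculovirus replicate 4 and PBS replicate 2. Of 18 markers listed, 15 were above the filter, led by p by the fractalkine receptor Cx3cr1 at 0.23 ± 0.11, P2ry12 at -0.26 ± 0.13 and Tyrobp at 0.22 ± 0.14 (log2 fold change ± SE). The endothelial level, like the reactive level, was highest of all arrays on baculovirus replicate 1, at 0.08. It was -0.07 on baculovirus replicate 4 and on PBS replicates 1 and 4. On PBS replicate 2, where the reactive level was lowest, it was the highest of the PBS arrays, at 0.05. Endothelial markers had 9 of 13 higher means, with the smallest p for Tie1, Kdr and Vwf at 0.28 ± 0.11, 0.26 ± 0.13 and 0.23 ± 0.12, and a summed intensity of 2056 to 2195 after baculovirus and 2021 to 2208 after PBS. Markers of meninges and fibroblasts had 11 of 14 higher means, led by p by Bgn, Slc22a6 and Igfbp2 at 0.47 ± 0.12, 0.39 ± 0.16 and 0.25 ± 0.10, with sums of 4243 to 4356 and 3445 to 4385. The meninges level was also highest on baculovirus replicate 1, at 0.20, and was lowest on PBS replicate 3, at -0.32. The striatal neuron level was -0.21, -0.03, -0.14 and 0.17 on the baculovirus arrays and -0.20, 0.14, 0.05 and 0.23 on the PBS arrays. It was lowest on baculovirus replicate 1, where the reactive level was highest. It was highest on PBS replicate 4, where the reactive level was 0.000668. The part of RNA quality, microglia, vessels, meninges and striatal neurons in the reactive level was not tested.

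Of 40 further astrocyte-enriched genes, 33 were tested, 17 with a higher and 16 with a lower mean, 0 past the threshold in either direction and a median of 9.10e-06. The smallest p belonged to S1pr1, a second sphingosine 1-phosphate receptor, at -0.23 ± 0.09, followed by the transcription factors Sox2 at -0.16 ± 0.08 and Hes5 at 0.21 ± 0.12 (log2 fold change ± SE, limma adjusted p = 0.699, 0.751 and 0.761). Of 26 further reactive astrocyte genes, 17 were tested, 15 with a higher and 2 with a lower mean, 0 past the threshold and a median of 0.14. Ptgs2, the inducible cyclooxygenase, stood at -0.21 ± 0.11, the complement protein C3 at 0.29 ± 0.15 and the chemokine Cxcl10 at 0.56 ± 0.31 (log2 fold change ± SE, limma adjusted p = 0.742, 0.753 and 0.756). The level of these further reactive genes was also highest on baculovirus replicate 1, at 0.39, and lowest on PBS replicate 2 and baculovirus replicate 4, at -0.26 and -0.25. On PBS replicates 1 and 4 the lists were less alike. The further genes stood at -0.21 and 0.17 there, and the listed reactive genes at 0.01 and 0.000668.

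Facts of the whole series that touch these values are few. All 11 striatal neuron markers with a probe set were above the filter, 2 with a higher and 9 with a lower mean, led by p by Bcl11b, Pdyn and Drd1 at -0.39 ± 0.11, -0.30 ± 0.12 and -0.18 ± 0.13. So were 10 of 10 oligodendrocyte markers, 3 higher and 7 lower, led by Ugt8, Ermn and Mag at -0.23 ± 0.12, -0.28 ± 0.19 and 0.10 ± 0.08, and 10 of 10 general neuronal markers, 4 higher and 6 lower, led by Nefl, Rbfox3 and Eno2 at -0.28 ± 0.09, 0.13 ± 0.09 and -0.08 ± 0.07 (log2 fold change ± SE). The summed intensity of 6 choroid plexus and ependyma markers stood at 410 for PBS replicate 4, against a range of 2132 to 2674 for the remaining 7 arrays. All 6 had a higher mean after baculovirus, led by p by Folr1, Aqp1 and Ttr at 0.45 ± 0.26, 0.22 ± 0.13 and 1.13 ± 0.82. The mean of 9 prokaryotic spike-in controls was lower on each baculovirus array (7.36 to 8.13 on the log2 scale) than on each PBS array (8.18 to 8.51), a difference of -0.65 (exact two-sided permutation p = 0.0286, the smallest that 4 against 4 arrays allow, and 0.0857 after Benjamini-Hochberg over 3 array measures). The part of the spike-in difference in the gene values was not tested.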

How the data were processed

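Probe set intensities on a linear scale were deposited by the authors. The submitters' processing notes name GCOS and GC-RMA, and the summary algorithm and the kit that labelled each array are not given in the sources used here. Deposited values had been scaled: the mean after trimming 2% at each end was 100.021 to 100.023 on each array. The genes and lists were chosen with earlier results of these data known.

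Values were turned into log2(intensity + 16). Medians of the arrays ranged from 5.74 to 5.85, closer than the 0.2 beyond which arrays would have been rescaled. After leaving out 57 controls, probe sets above the 40th percentile of the mean were tested with limma 3.58.1 in R 4.3.3 (variance trend, two-sided, no block). A gene was read by its brightest single-symbol probe set. Symbols checked through gene numbers in a RefSeq table (GRCr8) changed for 0 genes. Precision is limited by there being 4 arrays a group, with a median half-width of the 95% interval of 0.17 for identity and 0.27 for reactive genes (log2). List medians and levels have no test. Scripts were tested on simulated data.

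Values on every array are given for 18 preset genes, the 5 genes of smallest p in each list and those with separated groups. Of the preset genes, Sox9 and Osmr had no single-symbol probe set. Of each other list described, the 3 genes of smallest p are named. Lists of oligodendrocyte, neuronal and choroid plexus markers are given by counts or sums. Alternatives were other pseudocounts, normalizations, filters, variance models and probe set summaries, the beta-actin covariate, the methods' t-test, the replicate block and leaving out each array.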

Additional observations from a re-analysis of the deposited data

Results flagged for a closer look

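In 3 of 84 groups of 4 arrays examined, 1 array stood far from the other 3 of its group by Dixon's test; chance alone gives about 5%. The reactive level fell outside its group for PBS replicate 2 at -0.1848, with a range of 0.000668 to 0.0148 over the remaining 3 PBS arrays. Slc1a3, the glutamate transporter GLAST, had an intensity of 1351 on baculovirus replicate 4 and of 1137 to 1167 on the other baculovirus arrays. Mlc1, a membrane protein of astrocyte endfeet, had an intensity of 972.1 on PBS replicate 3 and of 866 to 877 on the other PBS arrays.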

How the results depend on the processing

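Of 31 tested genes, 0 passed under each alternative run, and the lowest adjusted p of any, for S1pr3, was 0.437 (limma). Each replicate number holds 1 array of each group, so a replicate block cannot move a fold change. The identity median of -0.00890 and the reactive median of 0.08 were thus fixed in advance. Only the p-values could change with the block, and 0 genes passed. No label says that a number marks 1 rat, and the deviations of same-numbered arrays correlated at -0.00511, 0.02, 0.00885 and -0.00302. Pairs of unlike number ran from -0.106 (baculovirus replicate 4, PBS replicate 2) to 0.0750 (baculovirus replicate 2, PBS replicate 4). With 7 rats for 8 arrays, some arrays must share a rat, but which ones do is unknown. The identity median turned positive under some settings. It was 0.0114 after quantile normalization, 0.00385 with a gene's probe sets averaged and 0.0131 without baculovirus replicate 1. The sign turned for 18 tested genes under at least 1 setting. Tm4sf1 stood at -0.000733 with a pseudocount of 64, -0.0100 after quantile normalization and -0.0284 after median centring. Quantile normalization gave 0.0129 for Aldoc and 0.0114 for S100b, and median centring gave -0.0253 for Mlc1 and -0.00221 for Gfap. Averaging a gene's probe sets gave 0.0989 for Gja1, 0.0764 for Glul and 0.00385 for Fgfr3. Leaving out 1 array at a time gave log2 fold changes of -0.0441 to 0.0248 for Aldoc, -0.0247 to 0.11 for Agt, -0.00289 to 0.0977 for Slc7a10, -0.00497 to 0.0956 for Ntsr2, -0.0126 to 0.0420 for Mlc1 and -0.0452 to 0.0422 for S100b. Among reactive genes it gave -0.0320 to 0.0911 for Gfap, -0.0186 to 0.15 for Vim, -0.0541 to 0.53 for Lcn2, -0.0497 to 0.22 for Cp, -0.00371 to 0.18 for Stat3, -0.0569 to 0.0749 for Tm4sf1, -0.0511 to 0.0175 for Emp1, -0.0177 to 0.14 for S100a10 and -0.18 to 0.0611 for Srgn. The group difference in the beta-actin measure ran from -0.0905 to 0.0288. The cause of these turns was not tested.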
